A study of Homo sapiens with 2 samples.

Results

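The 9 genes described here encode MHC class I molecules and the machinery that loads them with peptide, and they were taken by symbol (B2M, HLA-B, HLA-C, HLA-E, HLA-F, TAP1, TAP2, TAPBP and ERAP1) from a table of 11420 gene records. All 9 were measured, with 1 record each, and none fell below an FPKM of 1. The libraries came from HCT116, an established human colorectal carcinoma line. Cells were infected with lentiviruses that carried an shRNA targeting the c-Myc-induced long noncoding RNA LAST (1 library), or a control shRNA (1 library), and total RNA was taken 96 hr after infection in both. Both libraries thus shared the cell line, the lentiviral infection, the expression of an shRNA and the time of harvest. The question was which mRNAs change when LAST is depleted. With 1 library per group no SD, test or p-value can be given, and every difference below is a difference between these 2 libraries. The level of LAST was not analysed here, and the depletion could therefore not be checked in these libraries.

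MHC class I molecules display peptides from inside the cell to CD8+ T cells and to natural killer cells. A polymorphic heavy chain pairs with β2-microglobulin, the invariant light chain. Peptides made by the proteasome are pumped into the endoplasmic reticulum by the transporter TAP, trimmed there by the aminopeptidase ERAP1 and fitted into the groove by tapasin. Interferons and the coactivator NLRC5 raise transcription of these genes, and tumour cells, colorectal carcinomas among them, often lower it.

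Every level is given as FPKM (mapped fragments scaled to the length of the transcript and the size of the library), a scale set per length, so that levels can be set beside each other across genes. The log2 ratio is the difference of log2(FPKM + 1) between the libraries, LAST shRNA minus control shRNA. The added 1 understates differences of weakly expressed genes, so the plain ratio of the FPKM values is given as the fold. A gene is called higher at a log2 ratio of 0.58 or above and lower at -0.58 or below, about 1.49-fold on the FPKM + 1 scale. Depth is unknown, as no counts were used, so no counting interval is given. In bulk RNA a higher level in every cell and a larger share of cells with a high level cannot be told apart.

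All 9 genes had a log2 ratio above 0, against 51.3% of all records. B2M and TAP1 were higher (2 of 9), where 6.80% of all records were, and 0 of 9 were lower, where 5.88% of all records were. The median log2 ratio of the 9 genes was 0.47, against 0.01 over all records. The ratios were uneven and ran between 0.01 for ERAP1 and 1.35 for B2M. At a log2 ratio of 1 or above only B2M remained of the 9, where 2.78% of all records did.

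**Figure D1:**
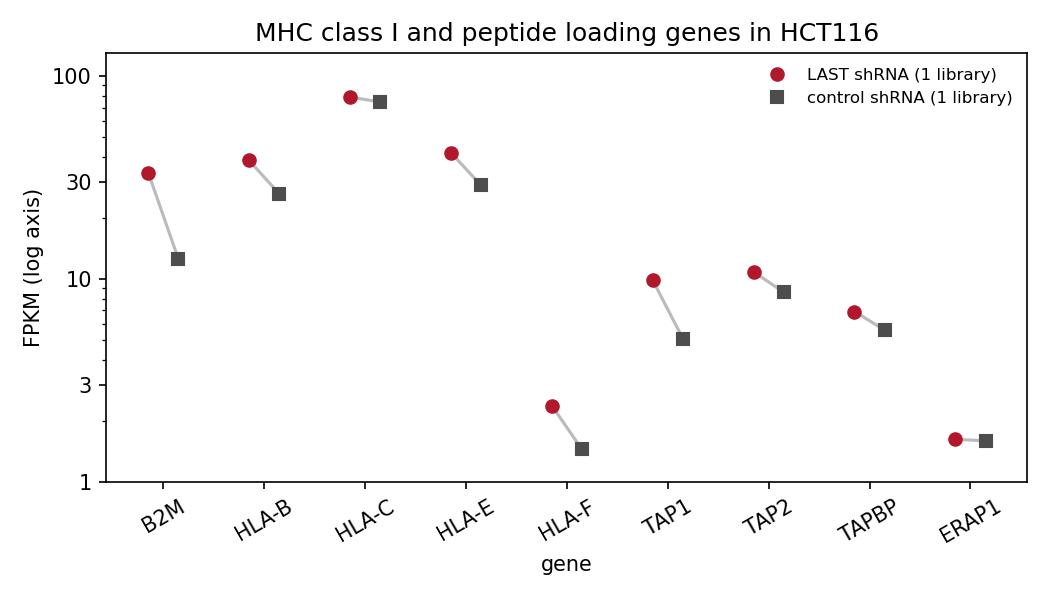
FPKM on a log axis for each of the 9 genes, with LAST shRNA (red circles) left of control shRNA (grey squares), 1 library each, joined by a line per gene. The steepest lines are those of B2M (33.4 against 12.5) and TAP1 (9.86 against 5.07), while those of HLA-C and ERAP1 are nearly flat.

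B2M, which encodes β2-microglobulin, the light chain that class I heavy chains need to reach the cell surface, was at an FPKM of 33.4 with LAST shRNA, against 12.5 with control shRNA. It was thus 2.68-fold higher, with a log2 ratio of 1.35, and 1.51% of all records had a higher ratio. By level it ranked 880th of all records with LAST shRNA and 2820th with control shRNA. B2M (ENSG00000166710) lay on chromosome 15 between 45003675 and 45011075 on the plus strand in hg19, the build of the table, and its ratio was the farthest from those of the other 8 genes. Its longest coding transcript has 4 exons, and the largest holds 74.5% of it. Large ratios in both directions were more frequent in this table where 1 exon makes up much of a transcript. Of the 6226 records with a largest exon of 50% or more, 9.03% were higher and 8.14% were lower, whereas of the 5088 records below 50% the shares were 3.89% and 3.11%. TAP1, with 31.8% in its largest exon, belonged to the second class. The part of this feature in the B2M ratio was not tested.

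The 4 heavy chain genes all had log2 ratios between 0 and the threshold. HLA-B, a classical heavy chain that presents peptides to T cells, was at 38.4 with LAST shRNA, against 26.2 with control shRNA (1.46-fold, log2 ratio 0.53). HLA-C, a classical heavy chain that is also the main ligand of killer cell immunoglobulin-like receptors, was at 78.8 with LAST shRNA, against 74.6 with control shRNA (1.06-fold, 0.08). HLA-C was the most abundant of the 9 genes in both libraries, and 40.0% of all records had a higher ratio than it did. HLA-E, a nonclassical chain that shows signal peptides of other class I chains to the NKG2A receptor of natural killer cells, was at 41.9 with LAST shRNA, against 28.9 with control shRNA (1.45-fold, 0.52). HLA-F, a nonclassical chain that can reach the surface without peptide, was at 2.37 with LAST shRNA, against 1.44 with control shRNA (1.64-fold, 0.47).

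HLA-B, HLA-E and HLA-F thus had like log2 ratios, between 0.47 and 0.53, just under the threshold, and HLA-C stood apart from them. HLA-F was the least expressed heavy chain of these 4 and had the largest fold, and with a pseudocount of 0.1 in place of 1 its log2 ratio was 0.68, past a threshold that 10.9% of all records then passed upward. The summed FPKM of the 4 chains was 161 with LAST shRNA and 131 with control shRNA. HLA-C made up 48.8% of that sum with LAST shRNA and 56.9% with control shRNA, while HLA-B made up 23.8% with LAST shRNA and 20.0% with control shRNA. The sum stood at 4.83 times the B2M level with LAST shRNA and at 10.5 times with control shRNA. B2M was listed below HLA-B, HLA-C and HLA-E in both libraries. How transcript values were combined into gene values is not stated, so this order of levels is given as listed.

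Heavy chain genes resemble each other in sequence, and short reads can be placed on the wrong gene. In the GENCODE release 29 transcripts, 2.54% of the distinct 50-base words of the longest coding HLA-B transcript occurred in a transcript of another gene. The share was 6.71% for HLA-C, 5.13% for HLA-E and 1.70% for HLA-F. With 100-base words it was 0.275% for HLA-C, 0.600% for HLA-E and 0 for the other 2. B2M shared no word of either length. The words are those of reference alleles, and how the class I alleles of HCT116 map was not tested, so the split of reads between heavy chains is uncertain.

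TAP1 and TAP2 encode the chains that together carry peptides across the membrane of the endoplasmic reticulum. TAP1 was at 9.86 with LAST shRNA, against 5.07 with control shRNA (1.94-fold, log2 ratio 0.84), and 3.66% of all records had a higher ratio. TAP2 was at 10.8 with LAST shRNA, against 8.58 with control shRNA (1.26-fold, 0.31), below the threshold. The level of TAP1 was 0.909 times that of TAP2 with LAST shRNA and 0.591 times with control shRNA, so that the partner genes were listed at closer levels in the LAST shRNA library. Of the TAP2 words 35.8% at 50 bases, and 35.2% at 100 bases, were shared with a transcript of AL669918.1, an annotated gene of the same locus, and reads from it could be counted for either gene. TAP1 shared 1.07% at 50 bases and 0 at 100.

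TAPBP encodes tapasin, which bridges TAP and the empty class I molecule and favours tightly bound peptides. It was at 6.91 with LAST shRNA, against 5.59 with control shRNA (1.24-fold, 0.26). ERAP1, the aminopeptidase that trims peptides to the length of the groove, was at 1.62 with LAST shRNA, against 1.59 with control shRNA (1.02-fold, 0.01). ERAP1 was the gene with the smallest ratio of the 9 and the least expressed in the LAST shRNA library, and 49.2% of all records had a higher ratio. ERAP1 overlaps CAST, the gene of the protease inhibitor calpastatin, by 18786 bases on the opposite strand of chromosome 5, and CAST was at 11.2 with LAST shRNA, against 9.79 with control shRNA (0.18). TAP1 lies wholly within the annotated span of PSMB9 on the opposite strand. The library kit marks strand, but no source used here says whether it was used in counting.

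**Figure D2:**
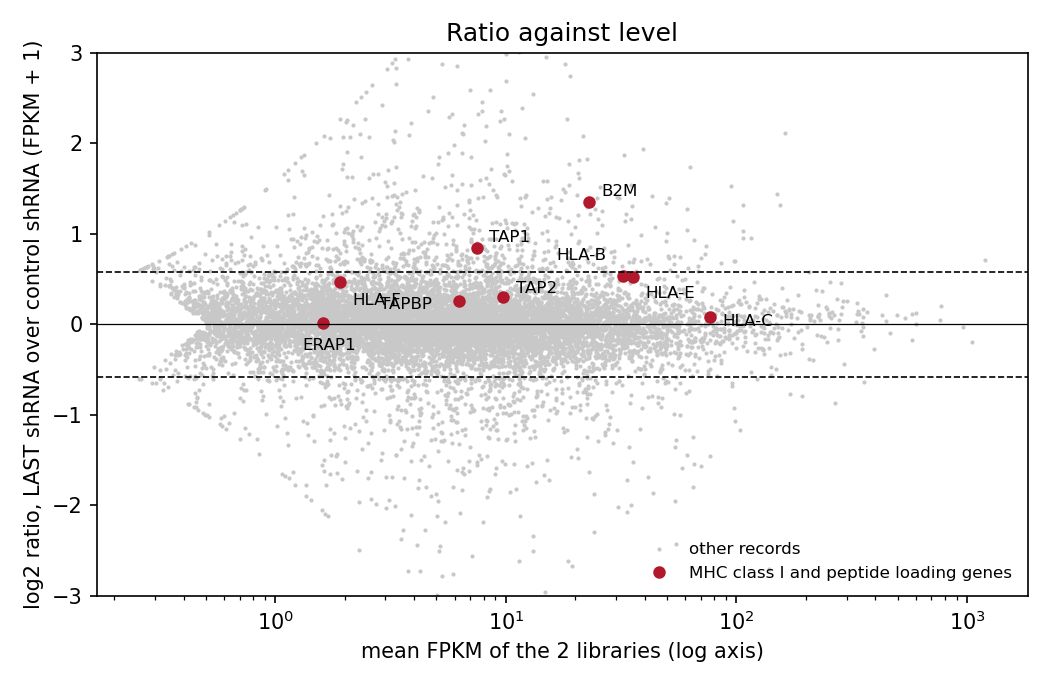
Log2 ratio of LAST shRNA over control shRNA (FPKM + 1 scale) against the mean FPKM of the 2 libraries on a log axis, for the 9 genes (red, named) and all other records (grey), with dashed lines at 0.58 and -0.58. B2M and TAP1 lie above the upper line, HLA-B and HLA-E just under it and ERAP1 on 0; 40 records with ratios beyond 3 in either direction are outside the plotted range.

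The promoters of these genes were searched for the interferon-stimulated response element (ISRE), the site bound by the STAT and IRF proteins that interferons activate. The genes were chosen as a pathway whose transcription interferons raise. The count of matches is thus not independent of that choice and says nothing about these 2 libraries. Promoter windows from RefSeq (GRCh38.p14, 250 bases before to 50 after each annotated start) were matched by symbol for 8 of the 9 genes, all but HLA-E, with 10 windows in all, as TAP1 and ERAP1 have 2 each. The core of the element was searched on both strands as GAAANNGAAA. It was found in 6 of the 8 genes (B2M, HLA-F, TAP1, TAP2, TAPBP and ERAP1), against 3.75% of the 8846 measured genes with a window and 3.57% of all 35116 windows. The stretches are printed 5′ to 3′ on the strand of the gene, with the matched letters in capitals.
B2M, 144 bases before the start (chr15:44711367-44711394, plus strand): ctctaaGAAAAGGAAACTGAAAacggga
TAP1, 134 bases before the upstream start (chr6:32853817-32853844, minus strand): ggccgcTTTCGATTTCGCTTTCccctaa
TAPBP, 20 bases before the start (chr6:33314077-33314104, minus strand): ttggagGAAAGTGAAAGTGAAAggagga
TAP2, 58 bases before the start (chr6:32838779-32838806, minus strand): tggggaagcGAAAGCGAAAgctgcccga
HLA-F, 156 bases before the start (chr6:29723269-29723296, plus strand): tccccagagTTTCTCTTTCtctcccaac
ERAP1, 2 bases past the downstream start (chr5:96807925-96807952, minus strand): gggctccacTTTCACTTTCggtcctggg

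In B2M, TAP1 and TAPBP the capitals hold 2 overlapping matches, so that 3 copies of GAAA (TTTC on the other strand) stand in a row, while TAP2, HLA-F and ERAP1 have a single match. The log2 ratios of the genes with a double match were 1.35 (B2M), 0.84 (TAP1) and 0.26 (TAPBP). Those with a single match were at 0.31 (TAP2), 0.47 (HLA-F) and 0.01 (ERAP1). HLA-B and HLA-C, with no match, were at 0.53 and 0.08. The part of the element in these ratios was not tested. A match is a description of these letters and not a bound site.

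Other motifs were searched in the same windows. The NF-kB consensus was found in 6 of the 8 genes (B2M, HLA-B, HLA-C, TAP1, TAPBP and ERAP1), against 12.0% of the measured genes with a window and 7.73% of all windows. The pair of HLA-B and HLA-C is shown because these neighbouring classical genes differed in ratio, and their stretches at the same place can be read side by side.
HLA-B, 177 bases before the start (chr6:31357338-31357364, minus strand): gcagcgttGGGGATTCCCCactcccct
HLA-C, 172 bases before the start (chr6:31272246-31272273, minus strand): gccgcgttgGGGATTCTCCactcccctg
HLA-B holds 2 overlapping matches there and HLA-C a single match. The pair was picked by its ratios, and the part of these letters in the difference was not tested. Of the other measured genes with an NF-kB match 6.14% were higher, against 6.41% of the genes without one. The letters TGACGC, part of the X2 box of class I promoters through which the NLRC5 enhanceosome acts, were found in HLA-B, HLA-C and TAP2, 3 of the 8 genes, against 17.9% of the measured genes with a window and 9.14% of all windows. The CCAAT box, which can be bound by NF-Y, was found on either strand in 6 of the 8 genes but also in 43.3% of the measured genes with a window and 34.6% of all windows. The gamma-activated site searched as TTCNNNGAA was found in TAP1 alone, in the window of its downstream start (8.16% of the measured genes with a window, 7.66% of all windows), and the E box CACGTG, the site of c-Myc, was found in 0 of the 8 genes (13.1% of the measured genes with a window, 7.26% of all windows). No matches of different motifs overlapped.

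Of the 9 genes, 7 lie in the MHC region of chromosome 6, taken here as the stretch between 29 and 34 Mb in hg19. In the table HLA-F (ENSG00000204642) lay between 29690552 and 29706305 and HLA-E (ENSG00000204592) between 30457244 and 30461982, both on the plus strand. HLA-C (ENSG00000204525, 31236526 to 31239907), HLA-B (ENSG00000234745, 31321649 to 31324965), TAP2 (ENSG00000204267, 32789610 to 32806557), TAP1 (ENSG00000168394, 32812986 to 32821755) and TAPBP (ENSG00000231925, 33267471 to 33282164) lay on the minus strand. ERAP1 (ENSG00000164307) lay on chromosome 5 between 96096514 and 96143803 on the minus strand. The 7 genes had a median log2 ratio of 0.47 and all were above 0, whereas the 96 other records of the region had a median of -0.04 and 40 of them were above 0. Of those 96 records, 6 were higher and 5 were lower, a share close to that over all records.

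The highest ratios of the region belonged to genes outside the class I pathway. IER3, an immediate-early gene, was at 198 with LAST shRNA, against 4.63 with control shRNA (log2 ratio 5.15), ZBTB9 was at 10.1 with LAST shRNA, against 1.81 with control shRNA (1.98), and NFKBIL1 was at 8.35 with LAST shRNA, against 2.98 with control shRNA (1.23). Of the genes listed at 1 FPKM or more in each library, the lowest ratio was that of BAK1, an apoptosis effector, at 4.56 with LAST shRNA, against 12.3 with control shRNA (-1.25), followed by RNF5 (-0.92) and MICB (-0.72).

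**Figure D3:**
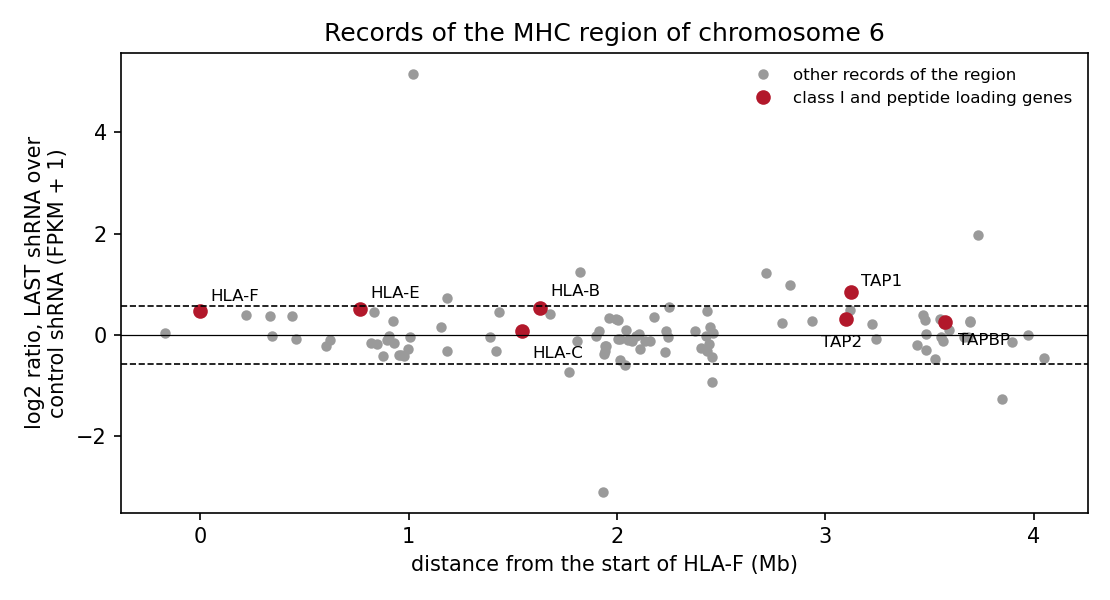
Log2 ratio of LAST shRNA over control shRNA (FPKM + 1 scale) for the 103 records of the MHC region, by distance from the start of HLA-F in Mb, with the 7 class I and peptide loading genes in red and the other 96 records in grey, and dashed lines at 0.58 and -0.58. The red points all lie above 0, between 0.08 and 0.84, and the grey points lie on both sides; the lowest of them, C6orf47, was listed at 0 with LAST shRNA, against 7.51 with control shRNA.

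The partners of the 9 genes in the endoplasmic reticulum had ratios on both sides of 0. Of 11 listed factors for trimming, folding and loading, 9 were measured, 0 were higher and 0 were lower, where 6.80% and 5.88% of all records were. The median log2 ratio of the factors was 0.05. Calreticulin (CALR), which holds the heavy chain in the loading complex, was at 235 with LAST shRNA, against 227 with control shRNA (0.05). Calnexin (CANX), which folds the new heavy chain, was at 98.0 with LAST shRNA, against 103 with control shRNA (-0.07). PDIA3, the oxidoreductase bound to tapasin, was at 99.2 with LAST shRNA, against 92.4 with control shRNA (0.10). These 3 abundant chaperones thus differed little between the libraries. TPP2, a cytosolic peptidase, was at 9.43 with LAST shRNA, against 9.09 with control shRNA (0.05). The listed ratios of this group ran between -0.33 and 0.30, a narrower range than that of the 9 class I and loading genes.

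Peptide supply was described by proteasome genes. All 5 measured immunoproteasome and activator genes (of 6 listed) were above 0 and 0 passed the threshold, with a median of 0.23. Over all records 51.3% were above 0, 6.80% were higher and 5.88% were lower. PSMB9, the interferon-inducible catalytic subunit that shares its locus with TAP1, was at 1.46 with LAST shRNA, against 0.746 with control shRNA (0.49, and 0.88 with a pseudocount of 0.1). PSMB10, another inducible subunit, was at 10.9 with LAST shRNA, against 9.64 with control shRNA (0.16). PSME1, a subunit of the activator PA28, was at 43.7 with LAST shRNA, against 34.1 with control shRNA (0.35). Its partner gene PSME2 had a log2 ratio of 0.23 and POMP, the gene of the assembly chaperone, one of 0.05. The 4 constitutive counterparts were all below 0, with a median of -0.33. PSME3, the PA28γ subunit, was the only gene of these 4 past the threshold, at 16.7 with LAST shRNA, against 26.1 with control shRNA (-0.61). The catalytic subunits PSMB5 (log2 ratio -0.36), PSMB6 (-0.31) and PSMB7 (-0.17), which the immunoproteasome replaces, were not. PSMB5 was at 58.1 with LAST shRNA, against 74.5 with control shRNA.

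Among 18 measured regulators of class I transcription (of 19 listed) 3 were higher and 0 were lower, where 6.80% and 5.88% of all records were. The list median was 0.07. Among the 3 higher regulators were the partners STAT2 and IRF9, which bind the ISRE together after interferon. STAT2 was at 5.39 with LAST shRNA, against 2.88 with control shRNA (log2 ratio 0.72), and IRF9 was at 4.40 with LAST shRNA, against 0.258 with control shRNA (2.10). Both are themselves interferon-induced genes. NLRC5, the class I transactivator, was at 0.783 with LAST shRNA, against 0.428 with control shRNA (0.32), a level at which its ratio moved to 0.74 with a pseudocount of 0.1. IRF1, an interferon-γ effector, was at 1.82 with LAST shRNA, against 1.23 with control shRNA (0.34). The subunits of the CCAAT-binding factor NF-Y were uneven, with log2 ratios of -0.02 for NFYA and -0.03 for NFYB. The remaining subunit gene, NFYC, was at 3.79 with LAST shRNA, against 5.79 with control shRNA (-0.50).

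The class I genes were set beside interferon-induced genes outside the pathway. Of 34 measured genes of that list (44 listed), 28 were higher and 0 were lower. All 34 were above 0, and the median was 1.06, against a median of 0.47 for the 9 class I and loading genes. In every record the higher of the 2 values lay above a floor. A gene under that floor with control shRNA could therefore only be above 0, as with IFI44 (0.0524) and IFI27 (0.0577). These counts and the median of the list thus depend in part on the floor. Among the 25 genes that reached 1 FPKM in each library, 20 were higher and 0 were lower. IFIT1, an interferon-induced RNA-binding protein, was at 8.34 with LAST shRNA, against 0.818 with control shRNA (2.36), and IFITM1, a membrane protein that blocks viral entry, was at 6.01 with LAST shRNA, against 0.599 with control shRNA (2.13). UBE2L6, the E2 enzyme of ISG15, was at 11.4 with LAST shRNA, against 1.69 with control shRNA (2.21). The log2 ratios of that list ran between 0.28 (BST2) and 3.88. Those of the 9 class I and loading genes ran between 0.01 and 1.35. The ranges overlapped between 0.28 and 1.35, and of the 9 genes only B2M lay above the list median of 1.06. The list was drawn up with earlier results of these data known.

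The HLA genes of MHC class II, which present peptides from outside the cell and are normally silent in epithelium without interferon-γ, were measured at low levels. Of 14 listed class II pathway genes 6 were measured, 3 were higher and 0 were lower, and the median was 0.51. HLA-DRB5 (0.476) and HLA-DQB1 (0.338) lay under the floor described above with control shRNA. They were present only through the LAST shRNA library and could only be above 0. The counts, the median and the class II sums thus depend in part on that floor. Only 2 of the 6 genes reached 1 FPKM in each library, and 1 of these was higher (IFI30). HLA-DRA was at 2.87 with LAST shRNA, against 0.667 with control shRNA (1.21), and HLA-DRB1 was at 2.33 with LAST shRNA, against 0.690 with control shRNA (0.98); they encode the chains of HLA-DR. IFI30, a lysosomal thiol reductase, was at 14.8 with LAST shRNA, against 8.38 with control shRNA (0.75). HLA-DMA, a chain of the class II loading factor, had a log2 ratio of 0.21. The 5 measured class II HLA genes summed to 8.86 with LAST shRNA and 4.02 with control shRNA, far below the sums of the class I heavy chains.

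Class I-like proteins and stress ligands had ratios on both sides of 0. Of 10 measured members (15 listed) 1 was higher and 1 was lower, where 6.80% and 5.88% of all records were. The list median was -0.01. PROCR, the endothelial protein C receptor, which has a class I-like fold, was at 23.5 with LAST shRNA, against 14.5 with control shRNA (0.66). MICB, a ligand of the activating receptor NKG2D, was at 3.70 with LAST shRNA, against 6.76 with control shRNA (-0.72). Its close relative MICA was at 13.2 with LAST shRNA, against 9.73 with control shRNA (0.41), on the other side of 0. Of the further NKG2D ligands, ULBP2 had a log2 ratio of -0.09 and ULBP3 one of 0.07, while ULBP1 was at 1.20 with LAST shRNA, against 2.10 with control shRNA (-0.50, and -0.76 with a pseudocount of 0.1). Of 8 listed genes for the turnover of class I molecules, 7 were measured, 0 passed the threshold in either direction and the median was 0.11. Their log2 ratios ran between -0.54 and 0.40. The ubiquitin ligase component TMEM129 was at 3.27 with LAST shRNA, against 3.39 with control shRNA (-0.04), and TMEM127 had a log2 ratio of 0.11.

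**Figure D4:**
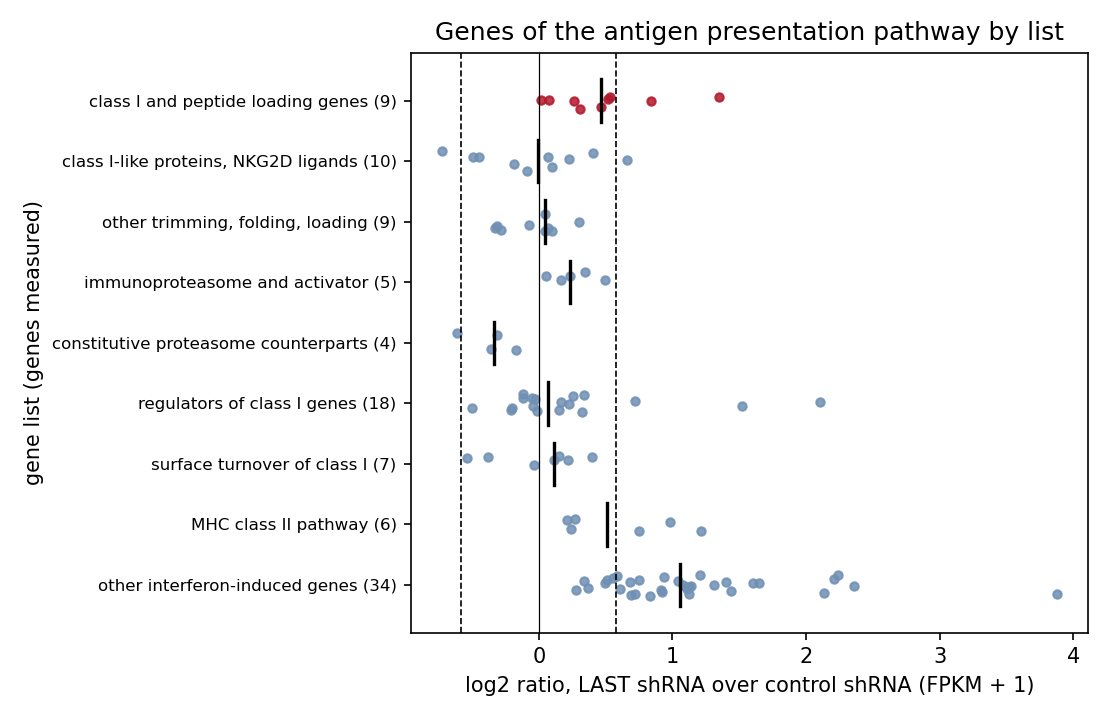
Log2 ratio of LAST shRNA over control shRNA (FPKM + 1 scale) for every measured gene of 9 lists, with the class I and peptide loading genes in red and the other lists in blue; black bars are list medians, dashed lines stand at 0.58 and -0.58, and the vertical place within a row is arbitrary. The median is 0.47 for the class I and loading genes, 1.06 for other interferon-induced genes, 0.05 for other trimming, folding and loading factors and -0.33 for constitutive proteasome counterparts.

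The label of the cell line was checked against marker genes. Of 8 markers of colorectal epithelium 6 were measured, among them EPCAM at 139 with LAST shRNA, against 137 with control shRNA, and their FPKM summed to 853 with LAST shRNA, against 811 with control shRNA. CDX2, an intestinal transcription factor, was low in both libraries, at 1.02 with LAST shRNA, against 1.58 with control shRNA. Of 8 immune cell markers, a cell type with high class I levels, only CD68 was measured, at 3.26 with LAST shRNA, against 1.58 with control shRNA (0.72), and CD68 is also a lysosomal protein of other cells. Of 6 fibroblast markers only COL1A1 was measured, at 1.90 with LAST shRNA, against 1.32 with control shRNA (0.33), and of 4 endothelial markers 0 were. The part of these genes in the ratios above was not tested.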

How the data were processed

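mRNA-seq of HCT116 cells was performed with a KAPA stranded kit. Tools named in the submitters' processing notes were cutadapt, FastQC, HISAT2 and StringTie, with build hg19, without versions, settings or the use of strand. The authors deposited FPKM values for 11420 records of 11406 symbols, all protein-coding, with a higher value of at least 0.500 in each. The summed FPKM was 155390 with LAST shRNA and 154798 with control shRNA, and depth is unknown.

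Log2 ratios used a pseudocount of 1 and no further scaling. A gene under the floor of the higher value in 1 library is present only through the other, which fixes the sign of its log2 ratio. Libraries were grouped by title, and with 1 library per group no test was run. The 9 genes and the 8 other lists were chosen with earlier results of these data known. Named were the 9 genes, list members past the threshold of 0.58 or closest to 0, known partners, the extremes of the MHC region and genes overlapping a member. PSMB5, PSME1, PSME2, MICA, ULBP1, NFYC, MARCH9, HLA-DRB5, HLA-DQB1 and C6orf47 fall outside this rule and were added once their values were known. Some genes are not reported here. Exon structure and shared words came from GENCODE release 29 (GRCh38), joined by gene identifier (11314 records matched), and promoters from RefSeq. Alternatives were pseudocounts of 0.1 and 0.5, 3 scalings, 2 filters, a threshold of 1 and, added after seeing the data, no pseudocount and a restriction to genes whose largest exon is under 50%. Counting at the threshold was tested on simulated data. Computation was done in Python 3.11.15 with numpy 2.4.6 and pandas 2.3.3, and plots were drawn with matplotlib 3.10.9.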

Additional observations from a re-analysis of the deposited data

How the results depend on the processing

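The log2 ratios of the 9 class I and loading genes stayed above 0 under all alternatives run for them. Only HLA-F changed its side of the threshold, at 0.68 with a pseudocount of 0.1, 0.66 with TPM and 0.72 with no pseudocount. B2M ran between 1.34 and 1.42 and TAP1 between 0.83 and 0.96. Of the 9 genes 1 was higher at a threshold of 1 (B2M). With a largest exon under 50%, 1 of the 5 genes left was higher (TAP1), a restriction that leaves out B2M, HLA-E, TAP2 and TAPBP and was, like the omission of the pseudocount, chosen after seeing the data. No paired analysis was possible because each group holds 1 library. The cause of the moves below was not tested, and unknown depth limits what low values can show.

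Over all records 777 were higher and 672 were lower, and 1242 were higher with a pseudocount of 0.1, 1198 with TPM, and 1286 higher and 1031 lower with no pseudocount. A threshold of 1 left 318 higher and 286 lower, and of the 5088 records with a largest exon under 50%, 198 were higher and 158 lower. Of the other MHC region records 14 were higher with a pseudocount of 0.1 and with TPM and 15 with no pseudocount, 3 were lower at an FPKM of at least 1 in each library, 2 were lower at a threshold of 1, and 3 of the 60 with a largest exon under 50% were higher and 2 lower. Of the class I-like genes 3 were lower with a pseudocount of 0.1, TPM or none and 2 with 0.5, while 2 were higher with none. A threshold of 1 left 0 in either direction, and of the 5 with a largest exon under 50% 0 were lower. The immunoproteasome list had 1 higher with pseudocounts of 0.1 and 0.5, TPM and none (PSMB9), the regulators 1 lower with 0.1, TPM and none (NFYC), and the turnover list 1 higher with 0.1 and none (MARCH9). The constitutive counterparts had 0 lower at a threshold of 1 and among the 3 with a largest exon under 50%. Of the class II pathway genes 1 was higher when both libraries had to reach an FPKM of 1 (IFI30), 1 at a threshold of 1 (HLA-DRA) and 5 with no pseudocount. Of the interferon-induced genes 18 of 34 were higher at a threshold of 1 and 13 of the 16 with a largest exon under 50%.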

Other observations

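The promoter motif printed above was also counted outside the 9 genes. Of the 326 other measured genes whose RefSeq window held the ISRE core, 35 were higher with LAST shRNA (10.7%), with a median log2 ratio of 0.04. Of the 8514 measured genes with a window and no match, 529 were higher (6.21%). For the NF-kB consensus the share was 6.14% of 1058 other genes with a match, against 6.41% of 7782 genes without one, and for the E box, the site of c-Myc, 6.64% of 1160 genes against 6.36% of 7686. These are counts in 2 libraries, with no test.

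The records nearest to B2M in level over the 2 libraries, by distance on the log2(FPKM + 1) scale, were genes of other pathways. PPP1CB, a catalytic subunit of protein phosphatase 1, was at 32.4 with LAST shRNA, against 12.6 with control shRNA (distance 0.045). TCEAL8 (distance 0.113) and the vesicle protein gene SYNGR2 (0.136) came next, SYNGR2 at 36.3 with LAST shRNA, against 13.2 with control shRNA.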
